A study of Drosophila melanogaster with 2 samples.

Results

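Peaks of the zinc finger protein CG6654 at divergent promoters of Drosophila melanogaster are described here. They were chosen from the authors' set of reproducible peaks by position and by signal. The summit had to lie within 500 bp of annotated start sites of protein-coding genes on both strands, and the authors' signal value had to be under a limit that sets the 296 strongest peaks apart. The rule was met by 351 of the 2962 peaks, and 705 genes had a start site within reach of them. The set of reproducible peaks is the one that passed the authors' irreproducible discovery rate (IDR) procedure, which keeps peaks that rank alike in replicates. Because position and signal selected the members, their numbers and signal values are descriptions and were not tested.

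The data are chromatin immunoprecipitation with sequencing (ChIP-seq) of CG6654 fused at its C terminus to enhanced green fluorescent protein (eGFP), expressed from a stable transgene and precipitated with an antibody against GFP. Whole embryos of both sexes, collected at 0 to 12 h of development, gave 1 group of 2 biological replicates, numbered 1 and 3. Every value is therefore an average over stages and cell types, and over males and females. The lists hold no read totals, so depth is unknown, and the control experiment named in the labels was not analysed here.

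A divergent promoter is a stretch of DNA from which neighbouring genes are transcribed in opposite directions. Such arrangements are common in the compact fly genome, and genes used in most cells, among them many for ribosomes, DNA repair and the transcription machinery, often start from them. CG6654 is a ZAD protein, one of a large insect family with an N-terminal zinc finger-associated domain and C2H2 zinc fingers, several of which bind promoters and chromatin boundaries. Promoters of widely used fly genes commonly carry the DNA replication-related element (DRE), bound by Dref, or Motif 1, bound by M1BP, whereas GAGA repeats, bound by the GAGA factor, and the TATA box are known from promoters of regulated genes.

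The sequences below show what lies under the summits. They are the plus strand of the Release 6 genome (dm6). Those before the last 3 run up to 50 bases on each side of the summit and end where an annotated exon begins. Of the 4 members of highest signal, the 3 whose summit lies outside annotated exons are given first. They show the AT-rich sequence between the start sites. Capitals mark the TATA box word (TATAAA or its reverse complement), which at Dic1/Elp6 lies 83 bp from the nearest start.
CG6565/Bdp1, chr2L:13373956-13374018: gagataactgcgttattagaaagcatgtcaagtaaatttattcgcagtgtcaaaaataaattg
Dic1/Elp6, chr3R:13364794-13364894: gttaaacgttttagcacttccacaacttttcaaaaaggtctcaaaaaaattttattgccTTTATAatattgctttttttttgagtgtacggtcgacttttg
MRP/Pih1D1, chr2L:12722017-12722117: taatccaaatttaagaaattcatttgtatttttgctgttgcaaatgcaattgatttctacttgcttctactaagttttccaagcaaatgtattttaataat
The next 5 hold the words best known from promoters of widely used genes. Capitals mark the DRE (TATCGATA) in the first 3 and Motif 1 (GGTCACACT or its reverse complement) in the last 2.
RpL28/eIF1, chr3L:3222974-3223074: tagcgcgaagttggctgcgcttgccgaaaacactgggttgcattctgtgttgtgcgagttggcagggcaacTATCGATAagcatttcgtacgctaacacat
RpS25/CG4820, chr3R:11216299-11216399: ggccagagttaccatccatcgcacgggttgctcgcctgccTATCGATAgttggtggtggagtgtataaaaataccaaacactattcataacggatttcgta
Uck/CG34290, chr3R:24290069-24290169: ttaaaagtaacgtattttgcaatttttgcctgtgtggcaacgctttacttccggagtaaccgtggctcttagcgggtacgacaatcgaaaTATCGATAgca
RpLP1/CG13690, chr2L:419876-419951: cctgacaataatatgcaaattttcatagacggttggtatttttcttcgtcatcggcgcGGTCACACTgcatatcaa
Cip4/mRpS6, chr3L:4364103-4364201: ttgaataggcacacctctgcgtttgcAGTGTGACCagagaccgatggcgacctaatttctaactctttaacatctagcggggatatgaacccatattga
The last 3 are the members that hold, within 50 bp of the summit, the 8-base word that led the 296 strongest peaks. They are shown as 30 bases, not cut at exons, with the word TCAAACTG, or its reverse complement CAGTTTGA, in capitals. At sofe/CG2186 and Arfip/CG17721 the word lies 17 and 24 bp downstream of the nearest start, and not between the starts.
sofe/CG2186, chrX:10857382-10857411: atcggtaaattTCAAACTGtacatcaaact
Arfip/CG17721, chr3R:11234975-11235004: cataaagttcaTCAAACTGtgttcacgaac
CG12991/Ankle2, chrX:17579714-17579743: acttttaaataCAGTTTGAatttcatacgt

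The genes at these promoters were placed head to head about as often as opposite pairs in general, and the summit mostly lay in the gap between them. In 343 of the 351 peaks (97.7%, 95% Wilson interval 95.6 to 98.8) the nearest opposite start sites pointed away from each other, and in 8 the genes overlapped at their 5' ends. Of the 2720 opposite pairs of coding genes in the annotation with starts at most 1000 bp apart, 2615 (96.1%) are head to head, a share inside the members' interval. Over the peaks, the opposite starts nearest the summit were a median of 295 bp apart (range -234 to 798, negative where the genes overlap). Over all 2720 pairs, the median between the closest starts of the genes was 291 bp, which is another measure. By that measure it was 274 bp in the pairs with an IDR peak of any signal and 298 bp in the others. The summit stood between its nearest opposite starts in 289 peaks (82.3%, Wilson interval 78.0 to 86.0) and outside in 62. The rule limits the separation to 1000 bp, so this upper end is built in.

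Summits in the gap were about as often nearer to the plus-strand as to the minus-strand start. Over all 351 members the nearer start was a median of 95 bp away (quartiles 57.5 and 132) and the farther one 216 bp (quartiles 159 and 302). Of the 288 head-to-head members with the summit in the gap, 125 (43.4%) had it within 50 bp of the midpoint. The nearer start was on the plus strand in 145 of them, on the minus strand in 141, and at equal distance in 2. At the 736 peaks of the same signal range that had coding start sites on 1 strand only (one-direction promoters), the nearest start was a median of 212 bp away. That gap is in part a matter of counting, since a divergent peak has at least 2 starts to be near. The summit was upstream of its nearest start in 83.5% of divergent peaks and in 84.8% of one-direction peaks.

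**Figure D1:**
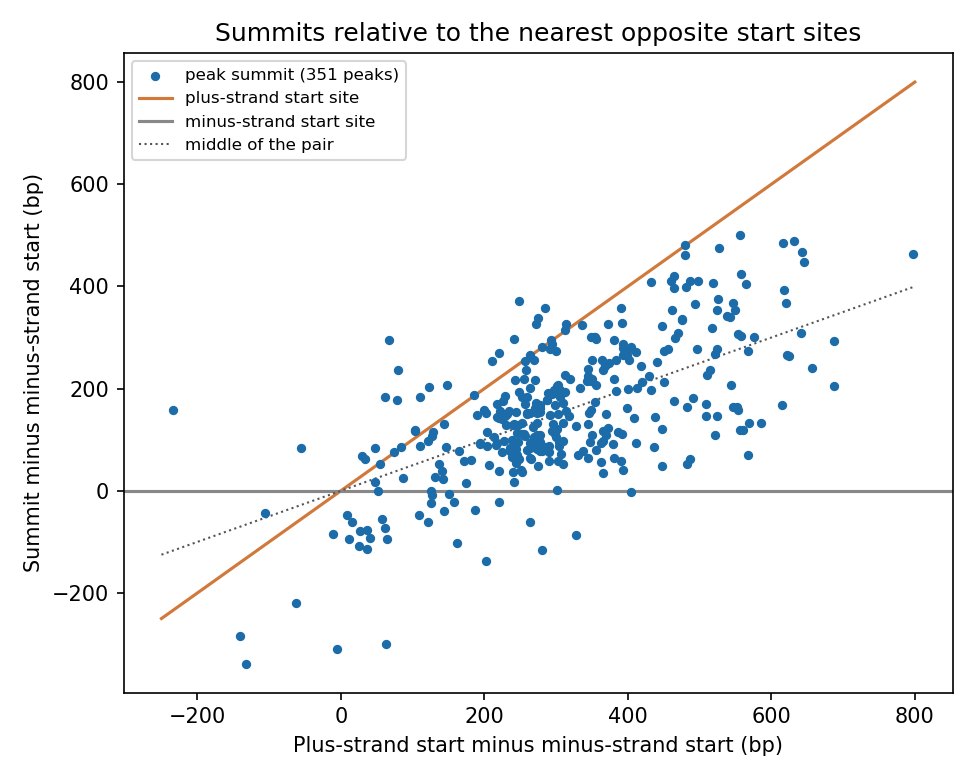
Each point is 1 divergent-promoter peaks: the horizontal axis is the plus-strand start minus the minus-strand start in bp, and the vertical axis the summit minus the minus-strand start in bp. Points between the grey line (minus-strand start) and the orange line (plus-strand start) are the 289 summits inside the gap, spread around the dotted midpoint.

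The narrowest gaps were among the few members where the genes overlapped or almost met. At the Mst85C/Nmdmc/Rel peak, beside the NF-kappaB gene Rel, the starts overlapped by 6 bp (separation -6) and the summit lay 303 bp away from the nearer one. SerRS, the seryl-tRNA synthetase gene, and CG17260 start 8 bp apart, and their summit lay 47 bp from the start of SerRS. The starts of mAcon1, a mitochondrial aconitase gene, and CG43345 have a separation of -11 bp. The widest gaps were 798 bp at CG30280/Vrp1, 687 bp at app/CG32100 and 687 bp at stwl/CG3919, and all 3 held the summit inside.

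Gene pairs with an intermediate gap were the ones most often bound. The annotation holds 2720 pairs of protein-coding genes with opposite starts at most 1000 bp apart, and 417 of them (15.3%) held an IDR peak of any signal within 500 bp of both starts. Among head-to-head pairs the share was 12.9% at gaps of up to 100 bp and 13.8% at over 100 to 200 bp (Wilson interval 10.6 to 17.8). It was 23.3% at over 200 to 300 bp (19.9 to 27.0) and 24.4% at over 300 to 400 bp (20.4 to 28.8), and 13.2% at over 400 to 500 bp (9.62 to 17.9). Over 600 to 800 bp it was 5.24%, and over 800 to 1000 bp 0 of 191 pairs were bound (Wilson interval up to 1.97). A summit within 500 bp of both starts has less room the farther apart they are, which lowers the shares at wide gaps by construction but not those at narrow ones. Pairs that share a gene are not independent, so the intervals cover counting error only.

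**Figure D2:**
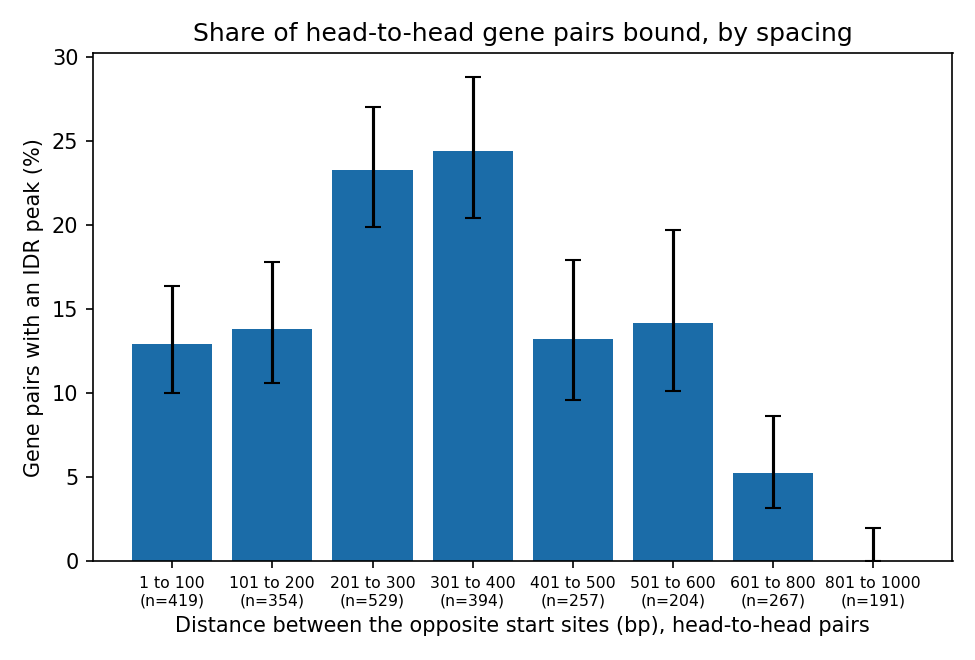
Bars give the percentage of head-to-head gene pairs with an IDR peak within 500 bp of both starts, by the distance between the starts in bp; error bars are 95% Wilson intervals and n is the number of pairs. The bars for gaps over 200 to 300 bp and over 300 to 400 bp, at 23.3% and 24.4%, stand above the 12.9% and 13.8% of narrower gaps.

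The signals of the strongest members are given first. The signal value is the authors' own and has no stated scale. It was 387 at CG6565/Bdp1, where Bdp1 encodes a subunit of the RNA polymerase III factor TFIIIB; the matching regions had 195 in replicate 1 and 188 in replicate 3. RpL7, a large-subunit ribosomal protein gene, and Ripalpha shared a peak of 384 (150 in replicate 1, 224 in replicate 3). At MRP/Pih1D1, an ABC transporter gene and a gene of the R2TP chaperone complex, the signal was 381 (178 and 185 in replicates 1 and 3). Both replicates thus held each of these 3 sites.

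Further high members followed closely. CG32022/CG6511 had 374, with 176 in replicate 1 and 194 in replicate 3. The peak of pds5, a cohesin cofactor, and Mppe had 350 (175 and 168 in replicates 1 and 3), and that of tzn/CG3698 had 349 (146 and 207). Cp190, which encodes a cofactor of several insulator proteins, and CG4338 had 337, with 144 in replicate 1 and 190 in replicate 3. CG32176/Coq4, the second being a gene of coenzyme Q synthesis, had 331 (117 and 212), as did Trmt6/Ent2, a tRNA methyltransferase subunit and a nucleoside transporter (126 and 197). Apart from pds5/Mppe, each of these was higher in replicate 3, but the values of the libraries have no common scale here.

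A few high members lacked an equal in replicate 1. The region matched to the Dic1/Elp6 peak of 382 had a signal of 249 in replicate 3, and the one in replicate 1 had 13.1. Dic1 encodes a mitochondrial dicarboxylate carrier and Elp6 a subunit of the Elongator complex. The same pair has another summit just above the limit, at 391, which replicate 1 held at 148, and the value of 249 in replicate 3 is matched to both summits. At Mnat9/CG1792 (348, of which CG1792 is a ZAD family gene) and at CG31808/Cyt-c-d (338) the regions ranked 359 and 349 in replicate 3, while no region of replicate 1 overlapped the peak by at least 50% in both directions.

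Members at the lower end included Pdss2/skd at 76.7, CG34310/Spn27A at 76.7 and Rcd4/CG13392 at 75.6. Among these genes, skd encodes a subunit of the Mediator kinase module. Just outside the limit were p38a/CG6178 and bves/Stt3A at 389 each, and Elp6/Dic1 and the ferritin pair Fer2LCH/Fer1HCH at 391 each. In all, 44 peaks met the position rule at a signal of 389 or more. Their median separation was 275 bp, and the summit lay in the gap in 33 (75%, Wilson interval 60.6 to 85.4).

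Genes for cytosolic ribosomal proteins held the largest share of members among 20 gene lists. Of the 90 such genes, 28 (31.1%) lay at a member peak, against 5.05% of all 13968 protein-coding genes. Part of that is how often a list's genes are paired at all: 55 of the 90 belong to an opposite pair within 1000 bp, compared with 36.8% of coding genes. Among the paired genes, 50.9% of the ribosomal ones had a member peak, and 13.7% of all paired ones did. That these genes hold many CG6654 peaks was known from earlier results of these data, so the count is not independent evidence.

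The 28 ribosomal protein peaks lay closer to a start site and were richer in GC than the other members, by their medians. The ribosomal protein gene was the nearer one at 27 of the 28 peaks. The summit was a median of 41.5 bp from the nearest start (quartiles 23.8 and 62.5), compared with 99 bp at the other 323 members (quartiles 63.0 and 134). The window of 50 bp on each side of the summit had a median GC content of 47.0% (quartiles 40.8 and 51.8), compared with 30.7% (quartiles 26.2 and 37.1). The DRE was present in 6 of the 28 (21.4%, Wilson interval 10.2 to 39.5) and in 7 of the other 323 (2.17%, 1.05 to 4.41), and the TATA box in 2 (7.14%, 1.98 to 22.6) and in 94 (29.1%, 24.4 to 34.3). These contrasts were noticed in the data and were not tested.

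Several ribosomal genes shared their peak with a regulator of transcription or translation. RpL28 and eIF1, a translation initiation factor that guards start codon choice, had a signal of 272 and 147 in replicate 3; replicate 1 had no matching region. RpL14/Nelf-E, the second a subunit of the complex that holds RNA polymerase II in pause, had 227, with 71.1 in replicate 1 and 145 in replicate 3. RpS25/CG4820, the second a ZAD gene, had 192, with 136 in replicate 3 and no match in replicate 1. RpL13 and Dref, the gene of the DRE-binding factor itself, had 163, with 41.7 in replicate 1 and 119 in replicate 3. The window at the RpL13/Dref summit holds no DRE.

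Insulator proteins and the ZAD family were represented by some of their known members. Of 28 insulator and architectural protein genes, 7 (25%) had a member peak, namely CG1792, Cp190, M1BP, Dref, pzg, Zaf1 and Cap-H2. Of 76 ZAD genes 9 (11.8%) did, led by CG1792 at 348, followed by CG10147 at 280, M1BP at 231 and CG4820 at 192. The single peak with 2 ZAD genes was that of Zaf1/CG14711, at 105 (84.5 in replicate 3, no match in replicate 1). Among paired genes the shares were 38.9% for insulator and 24.3% for ZAD genes, compared with 13.7% of all paired genes. Lists overlap, since CG1792, M1BP and Zaf1 are on both.

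Several DNA repair and replication genes shared their peak with a gene of another list. Of 56 DNA repair genes 10 (17.9%) had a member peak, and of 84 replication and cell cycle genes 10 (11.9%). Of all coding genes 5.05% did. Among paired genes the shares were 25% for repair and 19.6% for replication and cell cycle, compared with 13.7% of all paired genes. Irbp, which encodes the Ku70 subunit of end joining, shared a peak of 158 with mgr, a prefoldin gene (40.8 in replicate 1, 116 in replicate 3). The ATM kinase gene tefu shared one of 140 with the chaperone gene Hsc70-4 (76.7 and 53.3), and the translesion polymerase gene Rev1 one of 131 with MED30 of the Mediator complex (33.9 and 103). Msh6, of mismatch repair, lay beside the splicing gene Prp31 at 119 (69.9 and 45.9). Mcm2 of the replicative helicase and RPA1 of the single-strand binding complex shared a peak of 113 (42.8 in replicate 1, 69.6 in replicate 3). At Hsc70-4/tefu and Prp31/Msh6 replicate 1 held the higher value, and at the others replicate 3 did.

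Other pairs of list genes had signals of 104 or less. The nucleotide excision repair gene Ercc1 and the condensin gene SMC2 shared a peak of 104 (24.7 in replicate 1, 74.1 in replicate 3). Nup98-96, of the nuclear pore, and mbc had 92.3 (50.8 and 45.8). MED7/Cap-H2, a Mediator gene and a condensin II gene, had 80.3 (21.4 and 61.4). At Cdk1/mRpS7 the signal was 80, with 54.6 in replicate 3 and no match in replicate 1, and the summit lay exactly 200 bp from each start. These weaker members span a narrow range of signal.

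The remaining lists fell on both sides of the shares over all genes, which are 5.05% of coding genes and 13.7% of paired ones. Member peaks lay at 14 of 100 transcription machinery genes (14%, and 20% of the paired ones), led by Polr3E, Nelf-E, Taf2 and Polr2H. They lay at 10 of 75 mitochondrial ribosomal protein genes (13.3%, 16.9% of the paired ones), 5 of 39 aminoacyl-tRNA synthetases (12.8%, 20%) and 6 of 49 nuclear pore and transport genes (12.2%, 17.1%). Among vesicle transport genes the count was 10 of 130 (7.69%, 11.8% of the paired ones), among chaperones 3 of 42 (7.14%, 12.5%) and in oxidative phosphorylation 5 of 70 (7.14%, 11.4%). Chromatin regulators had 5 of 73 (6.85%, 10% of the paired ones), among them the Polycomb group gene E(z), and splicing genes 4 of 60 (6.67%, 8.33%). These 5 lists thus lay above the share of all coding genes and below that of paired ones. Translation factors had 2 of 54 (3.70%, 7.41% of the paired ones) and the proteasome 1 of 34 (2.94%, 4.35%). Mitochondrial import had 2 of 19 (10.5%, 25% of its 8 paired genes). Muscle genes had 1 of 28 (3.57%, 25% of only 4 paired genes). Of 29 neural and 52 patterning genes 0 had a member peak. Only 2 neural and 2 patterning genes stand in an opposite pair at all, so those counts say little of binding.

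Most members served 2 genes, and a few served more. The peak reached 2 genes in 334 cases, 3 in 15, and more in 2. One of these, at 258, lay among 10 annotated exon units of mod(mdg4), an insulator gene whose transcripts are known to be joined by trans-splicing, so that the annotated starts there need not be promoters. The other, at 130, lay among PIG-M, CG42379, CG42380, CG42381 and NC2alpha, with 52.4 in replicate 1 and 83.5 in replicate 3. The 351 members fell on 340 distinct gene pairs, and 11 pairs carried 2 members. In 10 of the 11 the summits were 202 to 221 bp apart, as at Cp190/CG4338 (337 and 135), Vps33B/Fur1 (290 and 124, 211 bp) and Elp5/CG1275 (282 and 88.2, 207 bp). Of the 27 members with another IDR summit within 500 bp, 26 had it 200 to 230 bp away and 0 nearer than 200 bp, and 249 of the 351 members (70.9%) were exactly 384 bp wide. Adjacent summits of the deposited list are thus not independent measurements of place.

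The summits were searched on both strands for 7 promoter or factor words, and for the leading word of the strongest peaks. The promoter words were the DRE, Motif 1, an E-box (CAGCTG), the TATA box, an initiator core (TCAGT), the Zelda word (CAGGTAG) and a repeat of GA. The repeat searched for was GAGAGA, called the GAGA word below. Within 50 bp of the summit, 189 of the 351 members (53.8%) held none of the 8. The TATA box word was present in 96 (27.4%) of the members and in 153 of the 736 one-direction peaks (20.8%), and the initiator core in 51 and 117 of them (15.9% of the one-direction peaks). The DRE was in 13 (3.70%) and 10 (1.36%), and the E-box in 19 (5.41%) and 24 (3.26%). Windows 200 to 300 bp from the members' summits held the TATA box word in 11.1%, the DRE in 2.42% and the E-box in 8.26%. A match describes letters and does not show that a factor binds there.

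GAGA repeats were rarer at divergent than at one-direction promoters, and this was the only word to pass the test within 50 bp of the summit. They were present in 5 of 351 members (1.42%, Wilson interval 0.610 to 3.29) and in 35 of 736 one-direction peaks (4.76%, 3.44 to 6.54), an odds ratio of 0.289 (two-sided test of Fisher, exact, with p = 0.0428 after adjustment over 8 words). The call was lost with 1 start per gene and with a rule of 250 bp. The DRE had an odds ratio of 2.79 and the TATA box of 1.43, both with adjusted p = 0.0575 in Fisher's exact test. The adjusted p was 0.194 for the E-box, 0.291 for the Zelda word, 0.374 for Motif 1, and 0.591 for both the initiator and the leading word.

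Within 100 bp of the summit, 5 words passed. The DRE was present in 25 members (7.12%) and 19 one-direction peaks (2.58%), with an odds ratio of 2.89 and adjusted p = 0.00311 in the exact test of Fisher, and Motif 1 in 13 (3.70%) and 7 (0.951%; odds ratio 4.01, adjusted p = 0.00726). The E-box was in 46 (13.1%) and 60 (8.15%), with adjusted p = 0.0190 in Fisher's exact test. The TATA box word was in 164 (46.7%) and 275 (37.4%), with adjusted p = 0.00726 in the exact test. GAGA repeats were in 15 (4.27%) and 90 (12.2%), with an odds ratio of 0.320 and adjusted p = 1.18e-04 in the exact test. The median GC content within 50 bp of the summit was 31.7% in members and 32.7% in one-direction peaks. The nearest start was a median of 95 bp from the summit in members and 212 bp in one-direction peaks. Members also have starts on both strands within reach. The part of GC content and of start distance in the word differences was not tested. Leaving out peaks at ribosomal protein genes, a choice made after seeing the data, 5 words passed within 100 bp and the DRE was in 5.57% of members and 1.69% of one-direction peaks (adjusted p = 0.00288, exact test).

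**Figure D3:**
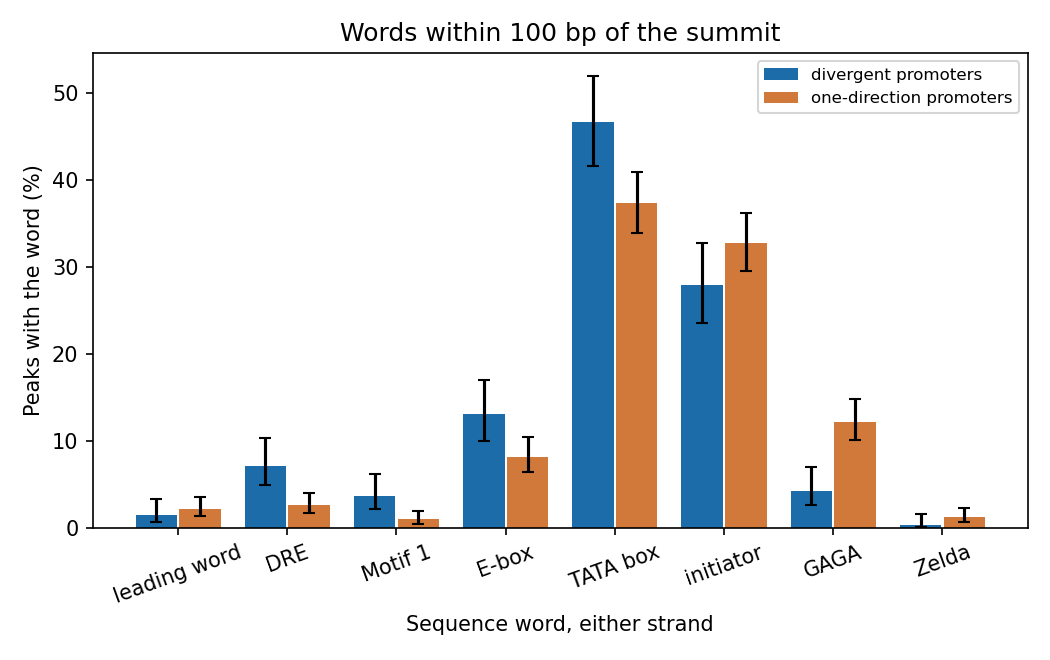
Bars give the percentage of peaks with each word on either strand within 100 bp of the summit, for divergent and one-direction promoter peaks below the signal limit; error bars are 95% Wilson intervals. The DRE, Motif 1, E-box and TATA box bars are higher for divergent peaks, and the GAGA bar is lower (4.27% and 12.2%).

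Most copies of the words lay between the start sites, as did 82.3% of all summits. The 13 DRE copies were a median of 55.0 bp from the nearest start, and 12 lay between the start sites. The 4 Motif 1 copies were a median of 22.5 bp from the nearest start, all in the gap, at RpLP0/CG7130, RpLP1/CG13690, Cip4/mRpS6 and CG42340/CG3918. No member held both words. Only copies within 50 bp of the summit were counted, which ties their place to that of the summit. The TATA box word lay a median of 113.5 bp from the nearest start, and between the starts in 84 of 96 members. The initiator core lay between the starts in 36 of 51 members, and the leading word in 1 of 3.

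The word that led the strongest CG6654 peaks was rare at divergent promoters. TCAAACTG was in 3 of 351 members (0.855%, Wilson interval 0.291 to 2.48) and in 69 of 1579 peaks of the same signal range with no coding start nearby (4.37%), with an odds ratio of 0.189 and adjusted p = 7.97e-04 in the exact test. Against the 10 of 736 one-direction peaks (1.36%) no difference passed the test. The members with it were sofe/CG2186 at 247 (96.4 in replicate 1, 154 in replicate 3), Arfip/CG17721 at 176 (71.8 and 96.8) and CG12991/Ankle2 at 115 (55.2 and 52.2). Of the 44 divergent-promoter peaks above the limit, 1 (2.27%) held the word, compared with 19 of 83 one-direction peaks (22.9%; exact test, adjusted p = 0.00170) and 59 of 169 peaks with no coding start (34.9%; exact test, adjusted p = 7.71e-06). The word was chosen on all 296 peaks above the limit, which include these, and the class tests were chosen after seeing the data, with adjustment over 3.

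The summits of members lay in an AT-rich trough, as did those of the other classes, and members had the highest GC content 500 bp away. Mean GC content in 21 bp bins was 31.5% at the summit (standard error 0.792) and 50% at 500 bp to its left in the genome. One-direction peaks had 33.5% at the summit (standard error 0.535), and peaks with no coding start 33.6% (standard error 0.349). At 500 bp to the left these classes had 43.5% and 41.6%. In 197 members long enough to measure, the sequence between the starts had a median GC content of 33.8%, and the first 100 bp of the plus-strand and of the minus-strand gene each had 39.0%. Above the signal limit, the median within 50 bp of the summit was 31.2% for the 44 divergent peaks, 38.6% for one-direction peaks and 41.6% for those with no coding start.

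**Figure D4:**
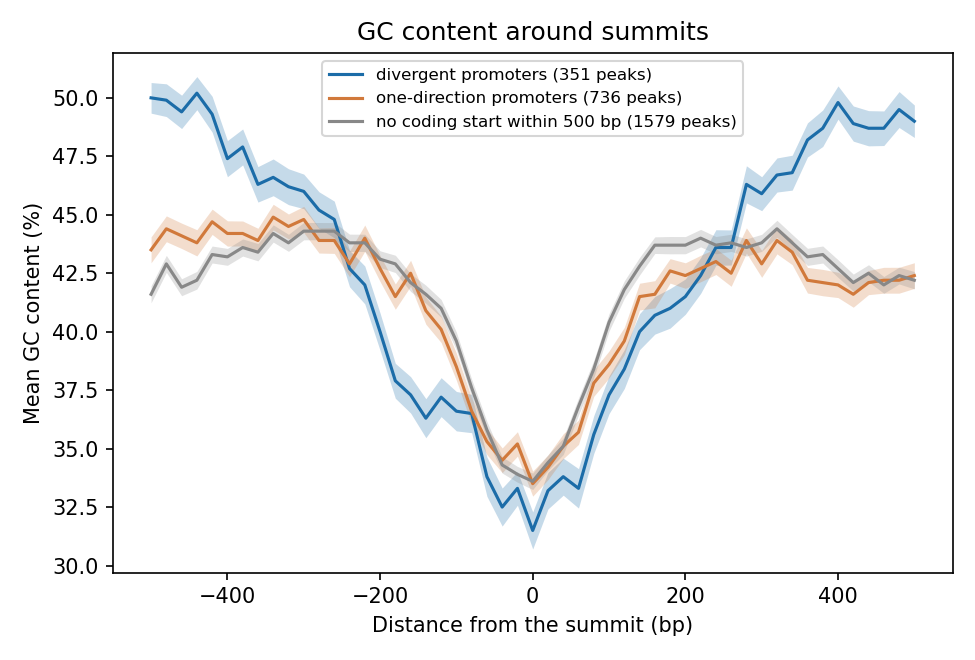
Lines give the mean GC content (%) by distance from the summit in bp, in genome orientation, for divergent-promoter peaks, one-direction promoter peaks and peaks with no coding start, all below the signal limit; bands are 1 standard error over peaks. The divergent line is lowest at the summit (31.5%) and highest at the edges (50% at the left end).

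Pairs with a member peak were also set against head-to-head pairs with no IDR peak, at the midpoint of the gap. With each gene in 1 pair only, the 50 bp on each side of the midpoint had a median GC content of 28.7% in 324 pairs with a member peak and 32.7% in 1998 pairs with no IDR peak. At gaps over 200 to 400 bp the medians were 25.7% and 26.7%. GAGA repeats were present in 0.617% of bound and 3.15% of unbound midpoints (exact test, adjusted p = 0.0470 over 8 words), and the DRE in 2.16% and 5.26% (adjusted p = 0.0658). At gaps over 200 to 400 bp none of the 8 words passed, and the lowest adjusted p in Fisher's exact test was 0.133. There 2 words, the E-box and the TATA box, had an unadjusted p under 0.05, in opposite directions. The E-box was rarer at bound midpoints (0 of 173, against 18 of 656 unbound ones). The TATA box was more frequent at bound midpoints (65 of 173, against 190 of 656). This comparison of bound with unbound pairs was added after seeing the data.

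The X chromosome held fewer divergent-promoter peaks than one-direction ones. Of the members 39 (11.1%) lay on X, compared with 152 one-direction peaks (20.7%), an odds ratio of 0.480 (two-sided exact test, adjusted p = 4.99e-04 over 6 arms). X carries 15.1% of the opposite gene pairs and 15.7% of coding genes, and 9.27% of its pairs held a member. The difference was seen before it was tested, and with a rule of 250 bp it had an adjusted p of 0.115 in the exact test. Arm 3R held 99 members (28.2%) and 22.4% of one-direction peaks (exact test, adjusted p = 0.123), and chromosome 4 held 0 members among its 11 pairs. The embryos were of both sexes, and the dose of X in the samples was not measured.

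Both replicates contained most members, but replicate 3 held them more fully, as it did the peaks of the other classes. Of the 351, 299 (85.2%) overlapped a region of replicate 1 by at least 1 bp, and 349 (99.4%) one of replicate 3. With an overlap of at least 50% in both directions, 109 had no match in replicate 1 and 41 none in replicate 3. By the same measure, 531 of the 736 one-direction peaks were matched in replicate 1 and 663 in replicate 3. Of the 1579 peaks with no coding start, 1214 and 1404 were matched in replicates 1 and 3. Among the 2962 regions of highest signal in each list, 200 members were matched in replicate 1, 275 in replicate 3 and 167 (47.6%) in both, against 46.9% of one-direction peaks and 46.0% of peaks with no coding start. Signals of the 239 members matched in both had a Spearman coefficient of 0.462 across peaks, which share their libraries and passed a joint selection. The coefficient was 0.603 for one-direction peaks and 0.444 for peaks with no coding start.

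A few members ranked very differently in the replicates. Replicate 1 ranked Atg9/CG7747 (120) at 1588, and replicate 3 ranked it at 14952. Snx21/aph-1 (127) ranked 1086 and 7867, and Sfmbt/CG5439/CG43925 (89.2) ranked 1240 and 5852 in replicates 1 and 3. In the other direction, besides Dic1/Elp6, was Uba3/tum (98.5), ranked 20977 in replicate 1 and 1732 in replicate 3. Fdh/CG4596 (88.5) did likewise, at 18012 and 1615. Snx21/aph-1 and Uba3/tum each carry another member close by. At Snx21/aph-1 it lay 203 bp away at 184, ranked 621 in replicate 3 and without a match in replicate 1. At Uba3/tum it lay 202 bp away at 116. These ranks are thus those of a summit and not of the whole promoter. The single member above 2000 in both libraries, Apc/spg with 2012 in replicate 1 and 2022 in replicate 3, shares its region with a summit of 4006, so those values belong to the stronger neighbour. In all, 4 members share a region with such a stronger peak.

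**Figure D5:**
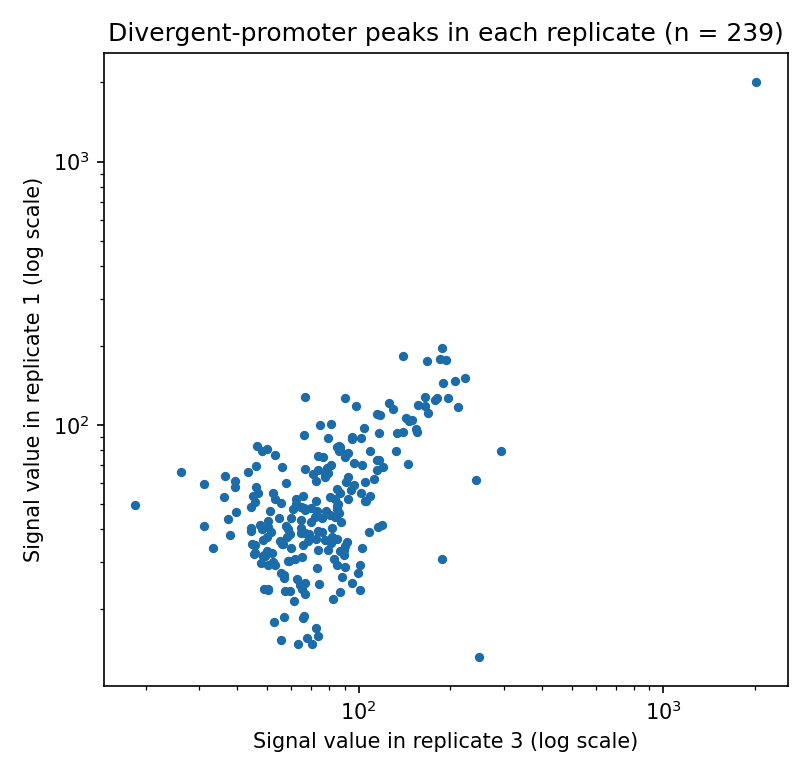
Each point is 1 of the 239 divergent-promoter peaks matched in both replicates, with the authors' signal value in replicate 1 (vertical, log scale) against that in replicate 3 (horizontal, log scale). Most points form 1 cloud; the point at the upper right is Apc/spg (2012 and 2022), and the lowest one is Dic1/Elp6 (13.1 and 249).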

How the data were processed

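ChIP-seq peak lists on dm6 were used as deposited: the IDR set of 2962 peaks and unthresholded lists of 30000 regions each for replicates 1 and 3. The sources used here name no caller, aligner or IDR threshold. Column 7 is a score whose scale is not stated, as deposited by the authors, and column 9 a −log10 q-value as deposited, which was not used for selection. The summit offset was deposited by the authors too. No list gives read totals, so depth is unknown, and intervals cover counting error only. Whether replicates came from separate collections beyond being biological replicates is not stated.

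Start sites were those of 13968 protein-coding genes in the Ensembl annotation BDGP6, whose coordinates match dm6; all regions lay within the arms. Sequence came from the Release 6 genome. Words were counted once per window, within 50 bp of summits, and compared by Fisher's exact test with Benjamini-Hochberg adjustment (scipy 1.17.1, statsmodels 0.14.6). The leading word had 8 bases and led the 296 strongest peaks against their flanks. Regions of a replicate were matched by reciprocal overlap of at least 50%, taking the nearest summit. Gene lists held 1250 names, of which 29 were not matched and 64 were matched through an older name. The word test was tested on simulated data.

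The members, gene lists and words were chosen with earlier results of these data known. Named members are the 12 of highest and 4 of lowest signal, the 3 smallest and 3 largest separations, list members of highest signal, peaks with 2 or more list genes or 4 or more genes, those with the leading word, and the 3 that rank most differently each way between replicates; RpLP0, the other Motif 1 and DRE sites and Apc/spg were named after their values were seen. Of the members this rule names, 2 are not reported here.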

Additional observations from a re-analysis of the deposited data

How the results depend on the processing

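The head-to-head share was between 96.3% and 98.3% under every alternative run for it. The number of peaks was 205 with a rule of 250 bp, 168 when only the upper 50% of peaks were kept, and 286 to 378 when 1 replicate was left out. With 1 start per gene the summit lay in the gap in 75.2%. The median separation was 251 bp with a rule of 250 bp, 328 bp with 1000 bp and 278 bp with 1 start per gene. Median GC content was 29.7% with the rule of 250 bp and 33.3% within 100 bp. Of the 8 words, 0 passed with the rule of 250 bp and with 1 start per gene, 2 with the rule of 1000 bp and in the upper 50% of peaks (the DRE and GAGA repeats), and 5 within 100 bp; without peaks at ribosomal protein genes, 2 passed within 50 bp (the TATA box and GAGA repeats) and 5 within 100 bp. The differences in word shares that changed sign, none past the test, were Motif 1 (-0.742 percentage points) and the E-box (-0.843) with the rule of 250 bp, the Zelda word (0.0125) with 1000 bp, and the initiator in the upper 50% of peaks (3.08) and without replicate 1 (0.674, against -2.79 without replicate 3). Members in the top-ranked regions of both replicates were 63.5% with any overlap and 32.5% with a reciprocal overlap of 80%. Bound pairs were 18.4% at most 500 bp apart, 8.57% with the upper 50% of peaks, and 12.6% to 16.3% with 1 replicate left out. On X the difference was -7.02 percentage points with the rule of 250 bp, no longer past the test. The cause of these changes was not tested. No paired analysis was possible because the samples form 1 group.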
